A study of Mus musculus with 9 samples.

Results

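The windows described here lie in 7 intervals of the mouse genome described by the rule that chose them as rich in zinc-finger genes, and they were selected on SMAD1 enrichment already seen in these data. The intervals lie on 6 chromosomes and hold 35731 of the 2654924 windows of 2 kb in which reads were counted. In mm9 coordinates they run from 62000000 to 69000000 on chromosome 13, from 4500000 to 13500000 and from 23500000 to 31500000 on chromosome 7, and from 175000000 to 178000000 on chromosome 2. The others run from 18000000 to 25000000 on chromosome 12, from 71300000 to 72500000 on chromosome 8 and from 21800000 to 22400000 on chromosome 9. In the first interval of chromosome 7, 62 windows touching 6650000 to 6710000 were left out by the same rule. The comparison set was the 795840 windows on the rest of the same 6 chromosomes. That the intervals are rich in zinc-finger genes is taken from the rule. No gene annotation of build mm9 was used here, so no region is assigned to a gene, exon or intron.

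Zinc-finger proteins of the KRAB class form one of the largest families of mammalian DNA-binding proteins. Their genes arose by tandem duplication and lie side by side in clusters, so neighbouring copies resemble each other closely and short reads are hard to place among them. Many of these proteins recruit the corepressor TRIM28 and silence transposable elements. SMAD1 is the transcription factor that carries BMP signals from the cell surface to chromatin, and BMP signalling starts the germ cell programme in the epiblast.

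Chromatin immunoprecipitation followed by sequencing was done on mouse cells that all carry the strain label C57BL/6 and the cell type label EpiLC, for epiblast-like cells. SMAD1 was profiled at 12, 24 and 36 h in a Blimp1-mVenus reporter line (BV) and at 36 h in a Prdm14-mVenus reporter line (PV). T (Brachyury, a T-box factor of the mesoderm) was profiled in PV, and TCF1 (a factor that answers to WNT signalling) in BV, with no time named for either. Inputs, which are sonicated chromatin without an antibody, came from PV and BV, and a further input titled BVSC carries the BV genotype label. Per the labels' protocols, the epiblast-like cells were kept in floating culture with LIF, in the presence or absence of BMP4 and WNT3A. Which cytokines a given library received is not stated. Each of the 9 libraries is the only one of its group, so no difference below has a replicate check and no p-value across libraries is given. Depth was 14925074 to 43354004 reads for the immunoprecipitated libraries and 42532115 to 134657262 for the inputs, input BV being the deepest.

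Levels are counts scaled so that the autosomal windows of each library average 1. Enrichment is the level in an immunoprecipitated library over the level in the input of the same line, with 0.5 added to both. A window was usable where the mean of the input levels was at least 0.25 and no input exceeded 3. It was called where its enrichment and its level were both at least 4, and called windows that overlap or touch form 1 region. The SMAD1 values inside the intervals helped to choose them and are given as a description. Plain ratios have nothing added and carry exact (Clopper-Pearson) 95% intervals, which reflect counting error alone, because PCR copies of a molecule are not independent.

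The intervals were poorly covered in all inputs. Of their windows, 19369 were usable (54.2%), against 722470 of the windows on the rest of the chromosomes (90.8%). Nearly all of the loss, 16354 windows, came from low input, and 8 windows were lost to high input. Coverage differed widely between intervals. Only 326 of 2999 windows on chromosome 2 (10.9%) and 1170 of 6999 on chromosome 12 (16.7%) were usable. The share was 48.8% in the first and 87.1% in the second interval of chromosome 7, 69.5% on chromosome 13, 90.8% on chromosome 8 and 98.8% on chromosome 9. Of all usable windows of the genome, 0.818% lay inside the intervals. In the GRCm38 RefSeq gene order, used for names only, the 6 chromosomes hold 244 of the 466 autosomal symbols of the zinc-finger type (52.4%) and 36.6% of autosomal coding genes. Chromosome 7 has 106 such symbols with a longest unbroken run of 15, and chromosome 13 has 44 with a run of 25. Chromosome 12 has 9 and chromosome 2 has 34, with a longest run of 2 on each, so these names do not show a cluster there. Chromosome 17, with 51 symbols, and chromosome 4, with a run of 16, hold no interval.

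SMAD1 enrichment was frequent in the usable windows of the intervals in each of the 4 SMAD1 libraries. At 12 h, 1.20% of usable windows inside were at 2-fold or more, against 0.164% on the rest of the chromosomes and 0.166% of all windows tested. At 24 h the shares were 0.372% inside and 0.0358% on the rest, with 0.0342% over all windows. At 36 h they were 0.284% and 0.0476% for BV, with 0.0521% over all windows, and 0.661% and 0.0569% for PV, with 0.0584% over all windows. The share inside was thus 5.96 to 11.6 times that on the rest, depending on the SMAD1 library. For T the shares were 0.795% inside and 0.456% on the rest, a ratio of 1.74, with 0.475% over all windows. For TCF1 they were 0.217% and 0.113%, a ratio of 1.92, with 0.0986% over all. One input set over another gave 0 to 7 windows at 2-fold or more inside the intervals, at most 0.0361%. The ceiling of 3 on input levels limits that count, though it removed only 8 windows there. Depth limits it too. The inputs averaged 33.5 to 106 counts per autosomal window, against 11.8 to 34.2 in the immunoprecipitated libraries, so counting noise was smaller among most input pairs.

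Thinning of the reads, inputs included, moved these ratios. With all libraries thinned to equal depth, the share inside over that on the rest was 2.20 for SMAD1 at 12 h, 1.60 at 24 h and, for the 36 h libraries, 1.51 (BV) and 1.93 (PV). It was 1.27 for T and 1.23 for TCF1. Requiring an input level of at least 0.5 left them at 6.94, 10.1, 5.60 and 12.0 for the SMAD1 libraries. With thinning, the 12 h share rose from 0.164% to 1.4995% on the rest and from 1.20% to 3.30% inside. The part of counting noise in that rise was not tested. For the SMAD1 libraries the density of called regions inside over that on the rest changed less. In the same order it was 18.6, 21.2, 30.9 and 25.3 at equal depth, beside 18.1, 18.7, 37.3 and 27.5 at full depth. For T it was 1.29, beside 1.72.

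**Figure D1:**
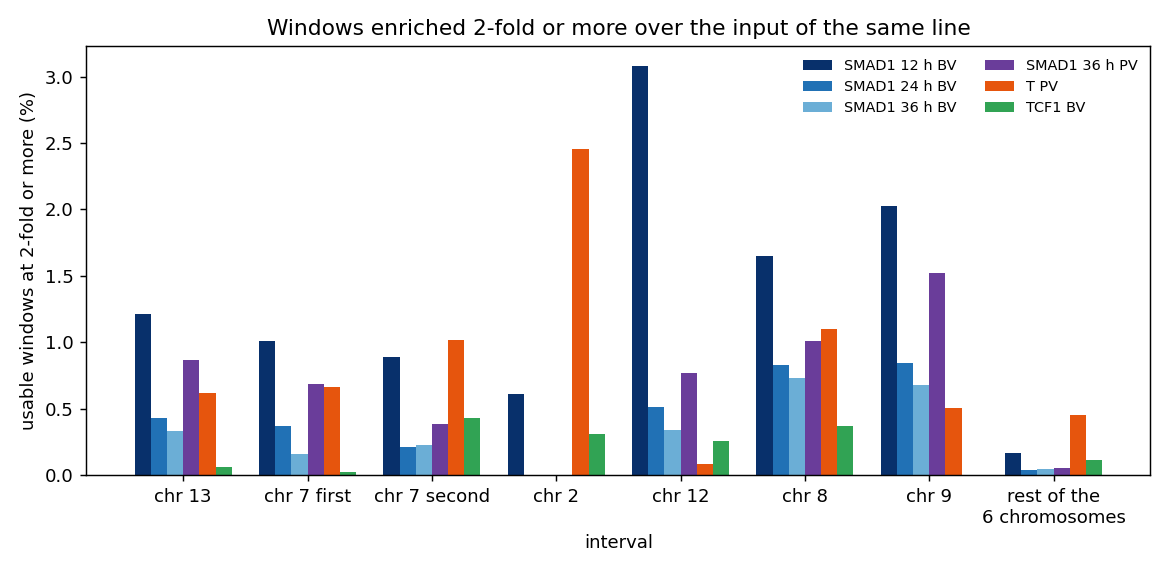
Percent of usable windows at 2-fold enrichment or more, for each interval and the rest of the same chromosomes, in the 6 immunoprecipitated libraries, 1 library each. At 12 h the SMAD1 share was 1.20% over all intervals and 0.164% on the rest, whereas T stood at 0.795% and 0.456%.

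The intervals differed among themselves. At 12 h the share at 2-fold or more was highest on chromosome 12 (3.08%), followed by chromosome 9 (2.03%), chromosome 8 (1.65%) and chromosome 13 (1.21%). It was 1.01% in the first and 0.890% in the second interval of chromosome 7. On chromosome 2, 2 of 326 usable windows reached 2-fold at 12 h and none did in the other SMAD1 libraries. In PV the order began with chromosome 9 (1.52%) and chromosome 8 (1.01%), and chromosome 12 stood at 0.769%. The order of the intervals was therefore not the same in the 12 h and PV libraries, and on chromosome 12 the shares describe only the 16.7% of windows that were usable.

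At the stricter threshold of 4-fold, 36 windows inside were called at 12 h and 13 at 24 h, and at 36 h there were 5 for BV and 28 for PV. Over all usable windows the called share was 0.00946% at 12 h and 0.00405% at 24 h, and at 36 h it was 0.000887% for BV and 0.00557% for PV. Inside the intervals it was 0.186%, 0.0671%, 0.0258% and 0.145%. For T, 14 windows inside were called, or 0.0723%, beside 0.0482% over all windows. For TCF1 none was called inside, beside 0.00283% over all windows.

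Merged into regions, these windows made up 16 of the 114 SMAD1 regions of the genome at 12 h (14.0%). They made up 7 of 48 at 24 h (14.6%). At 36 h they made up 3 of 15 for BV and 14 of 75 for PV (18.7%). Of the 678 T regions 9 lay inside (1.33%, exact 95% interval 0.609 to 2.50%). Of the 41 TCF1 regions 0 did, which allows a share of up to 7.32% when the limit of a count of 0 is taken as 3 counts. Per 10 Mb of usable sequence, the SMAD1 regions inside numbered 8.26 at 12 h and 7.23 in PV, against 0.457 and 0.263 on the rest of the chromosomes. For T the densities were 4.65 and 2.70, a ratio of 1.72 that turned to 0.654 with a pseudocount of 1 and to 0.982 over input BVSC. The strongest SMAD1 region of the whole genome in PV lay inside the intervals, as did 5 of the 10 strongest there and 3 of the 10 strongest at 12 h. None of the 10 strongest at 24 h lay inside. Of the 100 windows of highest enrichment, 23 were inside at 12 h and 15 at 24 h, with 19 for BV and 26 for PV at 36 h, whereas 3 were inside for T and 2 for TCF1.

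Joined over the 4 SMAD1 libraries, the called windows gave 16 regions inside the intervals. Chromosome 13 held 5 of them, the second interval of chromosome 7 held 4, chromosome 8 held 3, chromosome 9 held 2, and chromosome 12 and the first interval of chromosome 7 held 1 each. Chromosome 2 held none. All 16 were called at 12 h. Of these, 3 were called in all 4 SMAD1 libraries, 4 at 12 h, 24 h and in PV, 7 at 12 h and in PV, and 2 at 12 h alone. Of the regions, 11 were 3 kb wide and 5 were 4 kb, widths that depend on the grid of 2 kb windows stepping by 1 kb. On chromosome 8 the 3 regions lay within 143 kb, and on chromosome 9 the pair lay 78 kb apart. The 5 on chromosome 13 spread over 3656 kb, and the 4 in the second interval of chromosome 7 over 6046 kb.

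Each region was measured at 1 window, that of highest mean log2 enrichment over the SMAD1 libraries, and is named by that window's start. The strongest, at 30936001 on chromosome 7, had a SMAD1 enrichment of 16.4 at 12 h and 7.30 at 24 h, and of 5.55 in BV and 17.4 in PV at 36 h. Its T and TCF1 enrichments were 1.09 and 1.17. At 12 h it held 446 SMAD1 counts beside 151 in input BV, a plain ratio of 21.8 (18.1 to 26.4). In PV it held 922 counts beside 36 in input PV, a plain ratio of 25.1 (18.0 to 36.03). The 12 h and PV libraries, from different lines with different inputs, were thus alike in height here, and both 24 h and 36 h in BV were lower.

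The region at 24890001 on chromosome 7 had enrichments of 14.8, 5.61, 4.44 and 8.57 in the same order, with T at 1.32. Its TCF1 value of 2.03 was the highest of the 16 regions. The region at 71752001 on chromosome 8 had 9.44, 5.83, 4.34 and 11.1, with T at 1.53 and TCF1 at 0.886. These 2 and the strongest region are those called in all 4 SMAD1 libraries.

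Of the regions called in 3 libraries, that at 22082001 on chromosome 9 had SMAD1 enrichments of 13.2 at 12 h and 6.00 at 24 h, then 3.67 (BV) and 12.3 (PV) at 36 h. That at 66531001 on chromosome 13 had 10.4, 5.67, 3.86 and 10.4. Both were about as high in PV as at 12 h. The region at 64270001 on chromosome 13 had 10.5, 5.81, 2.90 and 4.86, so its PV value was 0.461 times that at 12 h. The region at 13078001 on chromosome 7, the only one of its interval, had 7.77, 4.09, 3.49 and 6.15.

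The 7 regions called at 12 h and in PV had 12 h enrichments of 4.29 to 7.31 and PV enrichments of 4.37 to 5.91. They lay at 28773001 and 30659001 on chromosome 7, at 71826001 and 71895001 on chromosome 8, at 22004001 on chromosome 9, and at 62875001 and 65613001 on chromosome 13. The lowest at 12 h, at 62875001, was higher in PV (5.86) than at 12 h (4.29). The 2 regions called at 12 h alone lay at 20905001 on chromosome 12 and at 66382001 on chromosome 13. The first had 7.76, 4.21, 4.18 and 4.25. It fell short of a call in the other libraries on its level, which was 3.60 at 24 h, 3.57 at 36 h in BV and 2.13 in PV. Its PV value rests on 4 input counts, with a plain ratio of 17.9 (6.69 to 67.3). The second had 5.78, 2.58, 2.59 and 3.27.

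**Figure D2:**
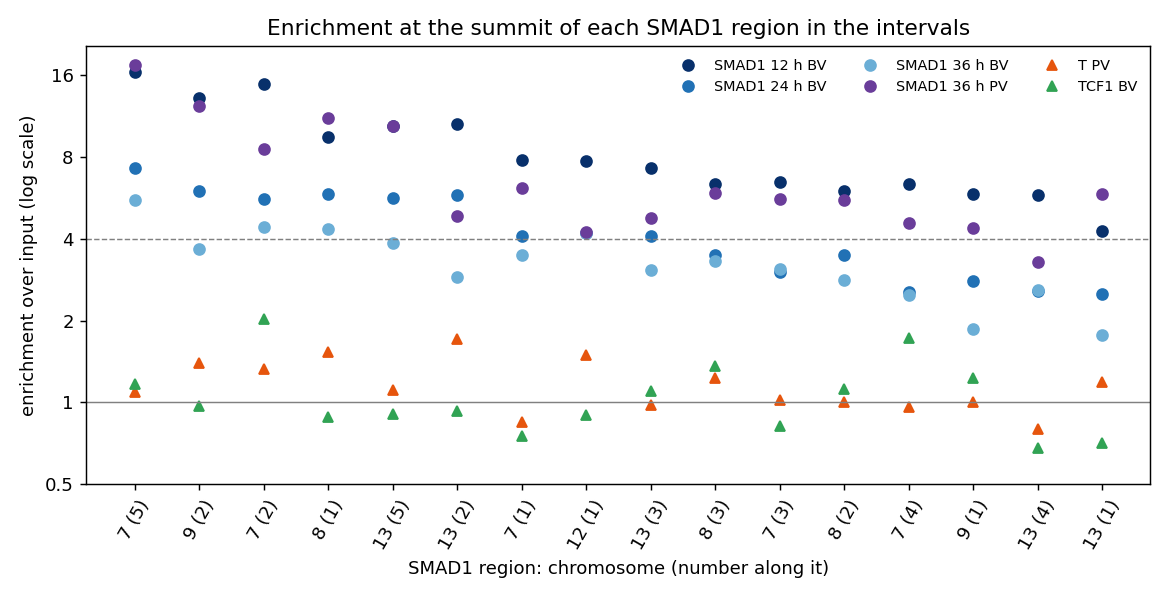
SMAD1, T and TCF1 enrichment over the input of the same line at the 16 SMAD1 regions inside the intervals. Each column is 1 region, labelled by chromosome and order along it, with 1 point per library. SMAD1 values at 12 h ranged from 4.29 to 16.4, whereas T ranged from 0.796 to 1.71.

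The SMAD1 signal was narrow. At 12 h, 6 of the 16 regions had 1 bin of 1 kb at 4-fold or more, 8 had 2 and 2 had 3. Over 8 bins of 1 kb around each region, the bin of highest enrichment held 27.6 to 61.7% of the counts at 12 h, with a median of 47.3%. In PV the median was 46.8%. The bin of highest enrichment was the same in both libraries in 15 of the 16 regions, the exception being that at 13078001 on chromosome 7. The bins were centred on the window at which each region was measured. That window was chosen by SMAD1 enrichment, these libraries included, so agreement on the bin was favoured by the choice. The choice of bin rests on the input as well as on the SMAD1 counts. In the strongest region the bin from 30937001 had an enrichment of 20.8 at 12 h and 29.5 in PV, from 316 and 666 counts. At 65613001 on chromosome 13 a single bin held 58 of 94 counts at 12 h.

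**Figure D3:**
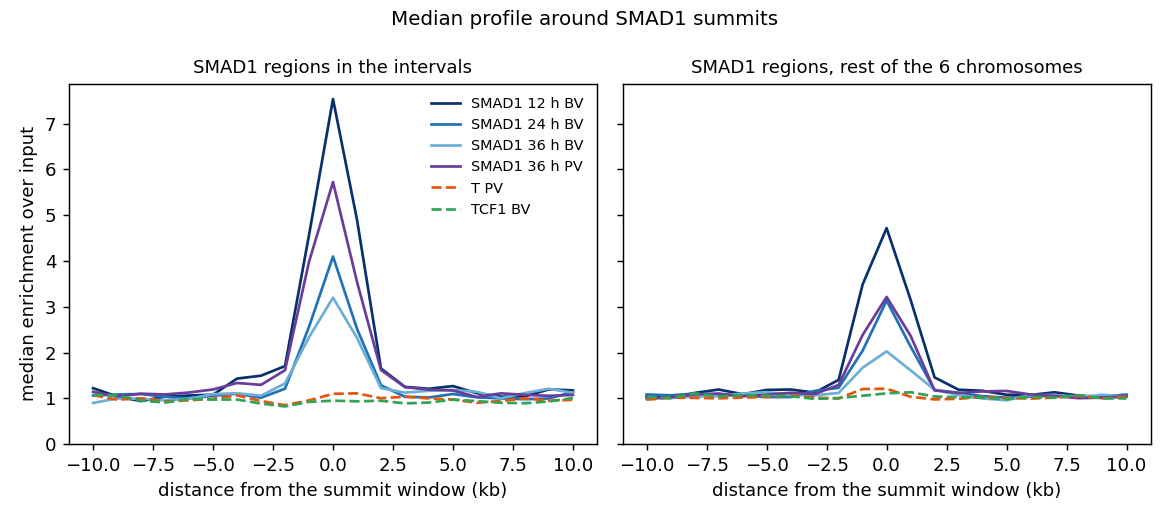
Median enrichment of 2 kb windows that step by 1 kb, by distance in kb from the summit window of each SMAD1 region, for the 16 regions inside the intervals and the 43 on the rest of the same chromosomes. SMAD1 enrichment inside peaked in the centre and stood at 0.901 to 1.22 at the left edge.

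Over the 16 regions the median log2 SMAD1 enrichment was 2.91 at 12 h and 2.04 at 24 h, and at 36 h it was 1.68 for BV and 2.52 for PV. The 43 SMAD1 regions on the rest of the same chromosomes had medians of 2.24, 1.65, 1.02 and 1.69. The level at 24 h was below that at 12 h in all 16 regions, with a median difference of -0.90 on the log2 scale and a range over the regions of -1.40 to -0.70. The difference between 36 h in BV and 24 h was smaller, with a median of -0.37. At 36 h 14 of 16 regions were lower, of which 7 were lower beyond counting error. From 12 h to 36 h in BV the median difference was -1.27, with a range of -1.86 to -0.89. The regions on the rest of the chromosomes had medians of -0.84, -0.46 and -1.24 for the same 3 differences, so the medians were of like size there. All 16 regions were called at 12 h, so the choice of regions used the 12 h values and these differences are a description.

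The 12 h over 24 h ratio of scaled counts ranged from 1.65 to 2.71 over the regions. The 24 h over 36 h ratio in BV ranged from 0.972 to 2.12. The libraries at 12, 24 and 36 h in BV were each set over the same input, and each time is 1 library, so time and library cannot be told apart.

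At 36 h, SMAD1 enrichment over the input of the same line was higher in PV than in BV in all 16 regions. The median difference was 0.92 on the log2 scale, with a range of 0.02 to 1.75, and it was 0.73 over the 43 regions on the rest of the chromosomes. PV over BV ranged from 1.02 at 20905001 on chromosome 12 to 3.35 at 22082001 on chromosome 9. The PV library was the deepest SMAD1 library and the 36 h BV library the shallowest, and line and library cannot be told apart. In 4 of the 16 regions PV at 36 h was above BV at 12 h. The inputs differed between lines at some regions, with input PV under 0.75 of input BV at 3 of 5 regions on chromosome 13 and at the 1 on chromosome 12. Chromosome 13 also held the highest ratio, 1.58 at 65613001. At the regions of chromosomes 7, 8 and 9 the same ratio was 0.754 to 1.45. With input BVSC used for both lines in calling and enrichment, the median difference between PV and BV was 1.16 on the log2 scale. Beyond such a change of input, the part of these input differences in the SMAD1 values was not tested.

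**Figure D4:**
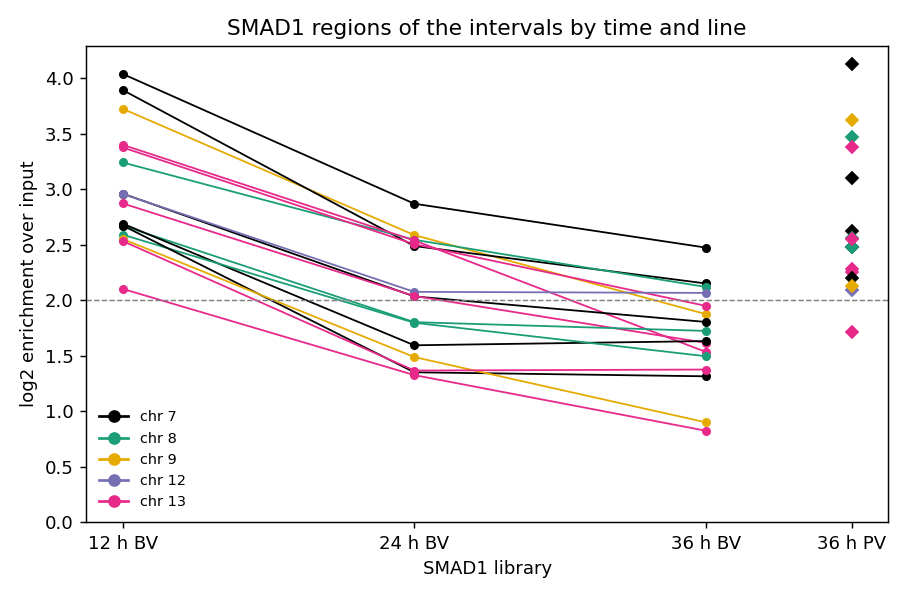
Log2 SMAD1 enrichment of each of the 16 regions inside the intervals in the 3 BV libraries (12, 24 and 36 h) and the PV library (36 h). Lines join the BV values of a region, diamonds are PV values, colours mark the chromosome and the dashed line is the 4-fold threshold. All 16 regions were lower at 24 h than at 12 h. Set over the input of the same line, all 16 were higher in PV than in BV at 36 h.

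T and TCF1 were not used in choosing the 16 regions. Their median log2 enrichment over the 16 regions was 0.14 for T and -0.07 for TCF1, and over the 43 regions on the rest of the chromosomes it was 0.28 and 0.15. The TCF1 median inside changed sign, to 0.07 at equal depth and 0.03 over input BVSC. T was at 2-fold or more in 0 of the 16 regions and 4 of the 43, and TCF1 in 1 of the 16 and 3 of the 43. Over all usable windows the shares at 2-fold or more were 0.475% for T and 0.0986% for TCF1. None of the 16 regions overlapped a T region, which by the same rule of 3 counts allows a share of up to 18.8%, and none of the 43 did. The same held for overlap with TCF1 regions. Of all usable windows, 0.0482% were called for T and 0.00283% for TCF1. With shares that low, a count of 0 overlaps is no result about these regions. T and SMAD1 in PV share an input and a line, so the T value of 1.09 at 30936001 on chromosome 7, beside 17.4 for SMAD1, comes from the same 36 input counts.

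The 9 T regions inside the intervals lay elsewhere. The highest, at 26361001 on chromosome 7, had a T enrichment of 15.1, from 323 counts beside 28 in input PV, and SMAD1 enrichments of 1.47 to 2.07. The next, at 71930001 on chromosome 8, had a T enrichment of 11.7 and lay 35 kb from the SMAD1 region at 71895001, with SMAD1 at 0.805 to 1.45. The other 7 had T enrichments of 4.03 to 5.02. Of these, 3 lay on chromosome 2, at 177922001, 177928001 and 177984001, which held no SMAD1 region. The rest lay at 6991001, 28541001 and 29803001 on chromosome 7 and at 72278001 on chromosome 8. The highest TCF1 enrichment inside was 3.84, on chromosome 8.

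At the lower threshold of 2-fold, called windows included, many SMAD1 windows were shared by the 2 lines. Inside the intervals 101 windows in 46 spots were at 2-fold or more both at 12 h and in PV, or 43.3% of such windows at 12 h and 78.9% of those in PV. On the rest of the chromosomes 191 windows in 108 spots were, or 16.1% and 46.5%. Per 10 Mb of usable sequence there were 23.7 such spots inside and 1.49 on the rest. Of the 46 spots, 30 held no called window, 15 of them on chromosome 13 and 8 in the first interval of chromosome 7. The strongest of these 30 was at 62273001 on chromosome 13, with SMAD1 enrichments of 5.15, 2.34, 2.74 and 3.19 and T and TCF1 enrichments of 1.09 and 0.872. It held 43 counts at 12 h beside 19 in input BV.

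Values close to the threshold were as follows. At 12 h the lowest called window was at 66381001 on chromosome 13 (4.13), and the highest not called were at 62273001 on chromosome 13 (5.15, at a level of 2.999) and at 13427001 on chromosome 7 (3.90). In PV the lowest called was at 22003001 on chromosome 9 (4.03), and the highest not called was at 62150001 on chromosome 13 (4.71, at a level of 2.84).

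The 16354 windows lost to low input were examined apart, by a rule chosen after seeing the data: the lower exact bound of the plain ratio had to be at least 4. At 12 h 61 of these windows passed (0.373%), against 21 of 73117 on the rest of the chromosomes (0.0287%) and 0.0518% of all such windows of the genome. At 24 h 17 passed, and at 36 h 3 for BV and 25 for PV, beside 0.00889%, 0.00481% and 0.0137% of all such windows. For T none passed, which by the rule of 3 counts allows a share of up to 0.0183%, and for TCF1 1 did, beside 0.00481% and 0.0037% of all. Together they formed 43 SMAD1 spots, of which chromosome 12 held 27 and chromosome 13 held 12, and 12 spots passed in both lines. Among those 12, the spot at 23131001 on chromosome 12 held 0 counts in input PV. So did those at 65863001, 66008001 and 66222001 on chromosome 13, beside 25 in input BV at 66008001. Their PV ratios thus rest on an input of 0 counts.

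One of the 43 spots, at 66770001 on chromosome 13, passed in all 4 SMAD1 libraries. It held 27 counts at 12 h beside 7 in input BV, a plain ratio of 28.5 (12.1 to 77.5). The spot at 20249001 on chromosome 12 held 28 counts at 12 h beside 6, a ratio of 34.5 (14.0 to 102), and 62 counts in PV beside 4, a ratio of 15.2 (5.64 to 57.5). The spot at 19308001 on chromosome 12 held 26 counts at 12 h beside 13, a ratio of 14.8 (7.32 to 31.3). The input counts are small, so the intervals are wide. How reads with several possible places were treated is not given in the sources used here, and its part in these values was not tested.

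**Figure D5:**
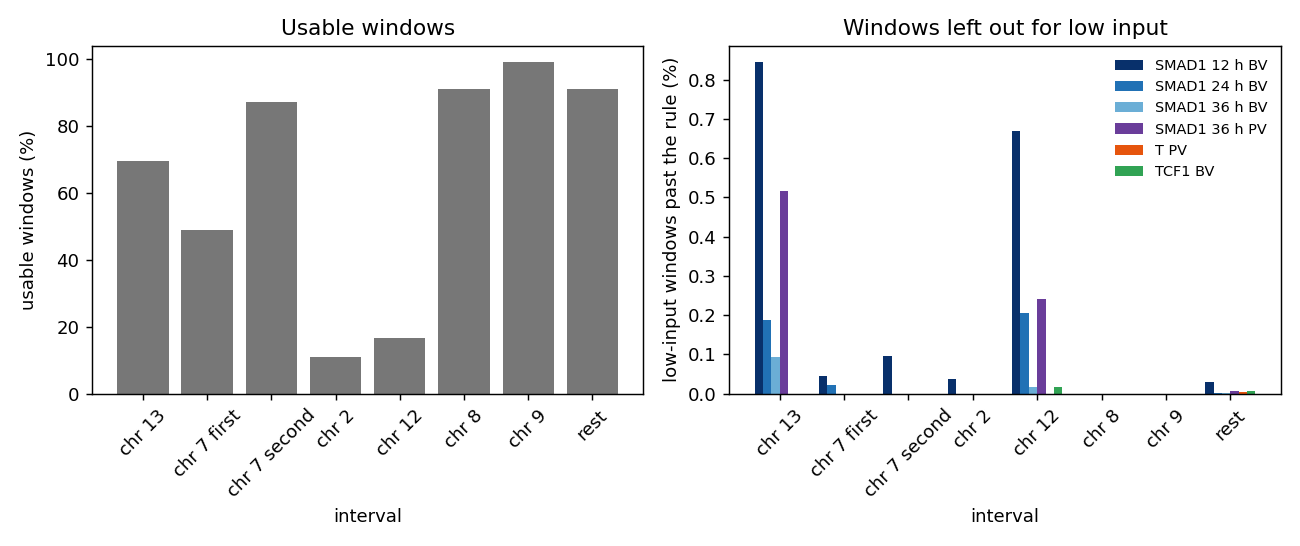
Percent of windows usable in each interval (left) and percent of its low-input windows past the exact rule in each immunoprecipitated library (right), with the rest of the same chromosomes last. At 12 h 0.373% of low-input windows inside passed, against 0.0287% on the rest of the same chromosomes.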

How the data were processed

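The authors deposited raw read counts in 2 kb windows that step by 1 kb, without normalization, for 6 immunoprecipitated libraries and 3 inputs. The submitters' processing notes name Bowtie 0.12.8 and build mm9. How duplicate and multiply mapped reads were handled is not stated in these sources. Scaling, usable windows, enrichment and calls are as given with the results. The depth of a library is the sum over every other window, since each read falls in 2 windows. Bins of 1 kb were derived by alternating sums in every library except input BVSC, whose counts do not divide that way. Regions were named by a rule: the strongest per interval and SMAD1 library, the 15 highest by mean log2 enrichment, and any called for T or TCF1. The remaining SMAD1 regions inside were added so that all are accounted for. Calculations used Python 3.11.15, numpy 2.4.6, scipy 1.17.1 and pandas 2.3.3. Calling was run on simulated counts with enriched windows planted at input levels near 1. That simulation planted none at low-input windows and held no duplicate or multiply mapped reads, so it does not bear on those. The intervals, lists and rules were chosen with earlier results of these data known. With 1 library per group no test across libraries was made. Other thresholds, pseudocounts, inputs, filters and depths were tried.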

Additional observations from a re-analysis of the deposited data

Results flagged for a closer look

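Windows left out of the comparisons for low input carried SMAD1 signal inside the intervals. By the exact rule with a lower bound of 4, 61 such windows passed at 12 h and 17 at 24 h, and at 36 h 3 passed for BV and 25 for PV, whereas 0 passed for T and 1 for TCF1. On the rest of the same chromosomes, from 73117 low-input windows, 21, 1, 2 and 4 passed in the SMAD1 libraries. The cause was not tested.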

How the results depend on the processing

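Of 246 alternative values of the counts, densities and median differences, 189 stayed within 1.5 times the reported count or ratio, or within the rank interval of a median over regions. Another 53 moved beyond that, and 4 ratios of densities turned to the other side of 1: T with a pseudocount of 1 and over input BVSC, and TCF1 with a pseudocount of 0.25 and a threshold of 3. Of 384 alternative enrichments of single regions, 366 kept their call or their lack of one, 13 lost the call and 5 gained it. A call needed both enrichment and level of at least 4, so some of the 366 crossed 4-fold in enrichment alone. In the rest of this paragraph the order is 12 h, 24 h, 36 h BV and 36 h PV for SMAD1, unless libraries are named. With a threshold of 3, regions inside numbered 27, 11 and 9 in the BV libraries, 16 for T and 2 for TCF1. With a threshold of 6 they numbered 2 at 24 h, 0 at 36 h in BV, 6 in PV and 2 for T. The exact rule, added after seeing the data, gave 61, 23, 8 and 30, and 1 for TCF1. A pseudocount of 1 gave 1 at 36 h in BV and 2 for T, and one of 0.25 gave 1 for TCF1. The density of regions inside over that on the rest was 18.1, 18.7, 37.3 and 27.5, and 1.72 for T. With no input filter it was 10.8, 11.1, 22.3 and 16.4, and 1.03 for T. With a threshold of 6 it was 34.4 at 12 h, 10.7 at 24 h, 56.0 in PV and 1.05 for T, and with a threshold of 3 it was 2.57 for TCF1. With a pseudocount of 1 it was 32.9 at 12 h and 0.654 for T, and with 0.25 it was 21.3 at 36 h in BV and 1.78 for TCF1. Over input BVSC it was 22.4 at 36 h in BV and 0.982 for T, and over the mean of the inputs 18.7 at 36 h in BV. Windows at 2-fold or more inside numbered 233, 72, 55 and 128, with 154 for T and 42 for TCF1. At equal depth they numbered 643, 375, 314 and 433, with 372 for T and 462 for TCF1. A pseudocount of 0.25 gave 449, 129, 135 and 231, with 307 and 148, and one of 1 gave 106, 41, 35 and 83, with 73 and 10. Over input BVSC they numbered 406, 147 and 156 in the BV libraries and 137 for TCF1. The cause was not tested beyond what the settings themselves change. No paired analysis was possible because each group has 1 library and no test across libraries was made. At equal depth the regions inside numbered 19, 8, 5 and 15.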

Other observations

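The inputs themselves differed inside the intervals. Among windows with at least 30 counts in input BV, input PV was under 0.5 of input BV in 1.19% inside and in 0.271% on the rest of the same chromosomes. The share was 6.85% on chromosome 12 and 1.93% on chromosome 13. For input BVSC, which carries the BV genotype label, it was 1.11% inside and 0.212% on the rest. These ratios used a pseudocount of 0.1 and made no allowance for counting error, which is larger at low levels. The median level of input BV in usable windows was 0.567 on chromosome 12 and 1.11 on the rest. The part of counting error in these shares was not tested. Means were also taken over 6 windows, not all, of a stretch from 66363001 to 66377001 on chromosome 13. There the levels of the PV libraries were 0.105 (input), 0.107 (SMAD1) and 0.143 (T). They were 0.532 in input BV, 0.412 in input BVSC and 0.447 to 0.895 in the immunoprecipitated BV libraries. The stretch is given as an example of low input PV, so its input values are a description.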
